A study of Mus musculus with 6 samples.

Results

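DEAD and DEAH box proteins are RNA helicases, enzymes that use ATP to unwind RNA or to strip proteins from it, and they are named after a short run of amino acids in their ATP-binding core. They act at nearly every step in the life of an RNA, from ribosome assembly and splicing to export, translation, storage and decay. A growing oocyte makes a large stock of mRNA and ribosomes, and a mature oocyte, which no longer transcribes, lives on that stock. The helicase genes were taken as all probes of a mouse array annotated to 1 gene symbol of the form Ddx or Dhx with a number, except Ddx4. This gave 38 genes on 40 probes, among 13840 genes with a symbol and 33012 probes in all. The choice rests on gene names only, so it takes in Ddx11, which is a DNA helicase, and leaves out RNA helicases with other names.

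Each array measured the RNA of a single mouse oocyte on a chemiluminescent Applied Biosystems array. Mature oocytes labelled Ago2 knockout (Ago2-deficient in the plots), 3 in number, were set against 3 oocytes of wild-type mice at the germinal vesicle (GV) stage. The knockout females carried floxed Ago2 alleles and a Zp3-Cre transgene, whose zona pellucida promoter is active in growing oocytes. The GV oocytes came from adult females and were freed of cumulus cells with hyaluronidase. They are labelled as collected from oviducts, where ovulated, mature oocytes are usually found, which conflicts with the GV stage in the same labels. The stage is used here as labelled and was not checked. For the knockout oocytes the labels give no age. In the authors' methods, ovulated mature oocytes came from adult females and had their cumulus cells removed with hyaluronidase. Genotype and stage change together between the groups and cannot be told apart. No label tells if different animals gave the oocytes, so p-values cover the spread among these oocytes, which may be technical, and nothing wider.

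Detection of a probe meant a signal-to-noise ratio no lower than 3. In all, 4620 to 6798 probes were detected in the knockout oocytes and 10650 to 11334 in the GV oocytes. The Ago2 probe passed this limit in 1 GV oocyte alone, at a level too low to check the genotype. All 11 oocyte markers looked up, among them Zp3, Gdf9 and Nlrp5, were detected in every GV oocyte and 8 in every knockout oocyte, where Zp2, Figla and Kit were not. By the limma test used for the helicases, 9 of the 11 were lower in the knockout oocytes, Zp3 by a log2 difference of -4.49 and Padi6 by -2.73. Of 17 cumulus and granulosa cell markers, 0 to 3 were detected per knockout oocyte and 4 to 7 per GV oocyte, with summed unscaled signals of 3620 to 5150 and 5410 to 13600. Fshr, Amh, Has2, Tnfaip6, Hsd3b1 and Pgr, 6 of these 17, were detected on no array, whereas Inha, Hsd17b1 and Nr5a2 were detected in all 3 GV oocytes and were lower in the knockout oocytes (log2 differences of -2.68, -2.46 and -3.54). Of 6 blood and immune cell markers, at most 1 was detected per knockout oocyte and 2 per GV oocyte, with summed unscaled signals of 1170 to 3160 and 1030 to 1620. The part of these cells in the results was not tested.

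Fewer helicase genes were detected in Ago2-deficient mature oocytes than in GV oocytes. Of the 38 genes, 12, 13 and 13 were detected in the 3 knockout oocytes, while the GV oocytes gave 26, 22 and 25. The averages were 12.7 ± 0.577 and 24.3 ± 2.08 (SD, n = 3 in each group), and the counts did not overlap (two-sided p = 0.1 by an exact permutation test, which cannot go lower with 3 arrays against 3). Over all genes with a symbol, the detected share was likewise smaller, at 16.7% to 24.8% per knockout array and 41.3% to 43.5% per GV array. In all 3 GV oocytes 20 of the 38 helicase genes were found (52.6%, where the share of all genes with a symbol was 32.2%), and in all 3 knockout oocytes 9 were found (23.7%, where that share was 10.9%).

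The 38 genes fell into 6 patterns of detection. On all 6 arrays 7 were detected, namely Ddx3x, Ddx39a, Ddx17, Ddx18, Ddx52, Ddx28 and Dhx32 (18.4%, where the share of all genes with a symbol was 10.1%). In all 3 GV oocytes but in no knockout oocyte 10 were detected, or 26.3%, where the share of all genes with a symbol was 11.4%. These were Ddx25, Ddx39b, Dhx34, Ddx41, Ddx42, Dhx8, Ddx50, Dhx33, Dhx30 and Ddx11. Ddx51, Ddx54 and Dhx35 were detected in all GV oocytes and in some knockout ones (7.89% against 10.7%). Ddx6 and Dhx36 showed the reverse, found in all 3 knockout oocytes and in 1 GV oocyte each (5.26% against 0.845%). No helicase gene was found in all knockout oocytes and in no GV oocyte. On no array at all were 6 genes detected, Dhx29, Dhx38, Ddx21, Ddx27, Ddx47 and Dhx9 (15.8% against 35.8%). The remaining 10 were detected on scattered arrays. Probes of close relatives did not share a pattern. Ddx17 was found in every oocyte and its relative Ddx5 in 1 GV oocyte. Ddx50 was found in every GV oocyte, where its nucleolar relative Ddx21 was found in none. Probes of the same gene differed too. A second Dhx34 probe was detected in no GV oocyte, and a second Ddx6 probe in 1 knockout oocyte. These patterns thus describe probes and need not hold for the transcripts.

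**Figure D1:**
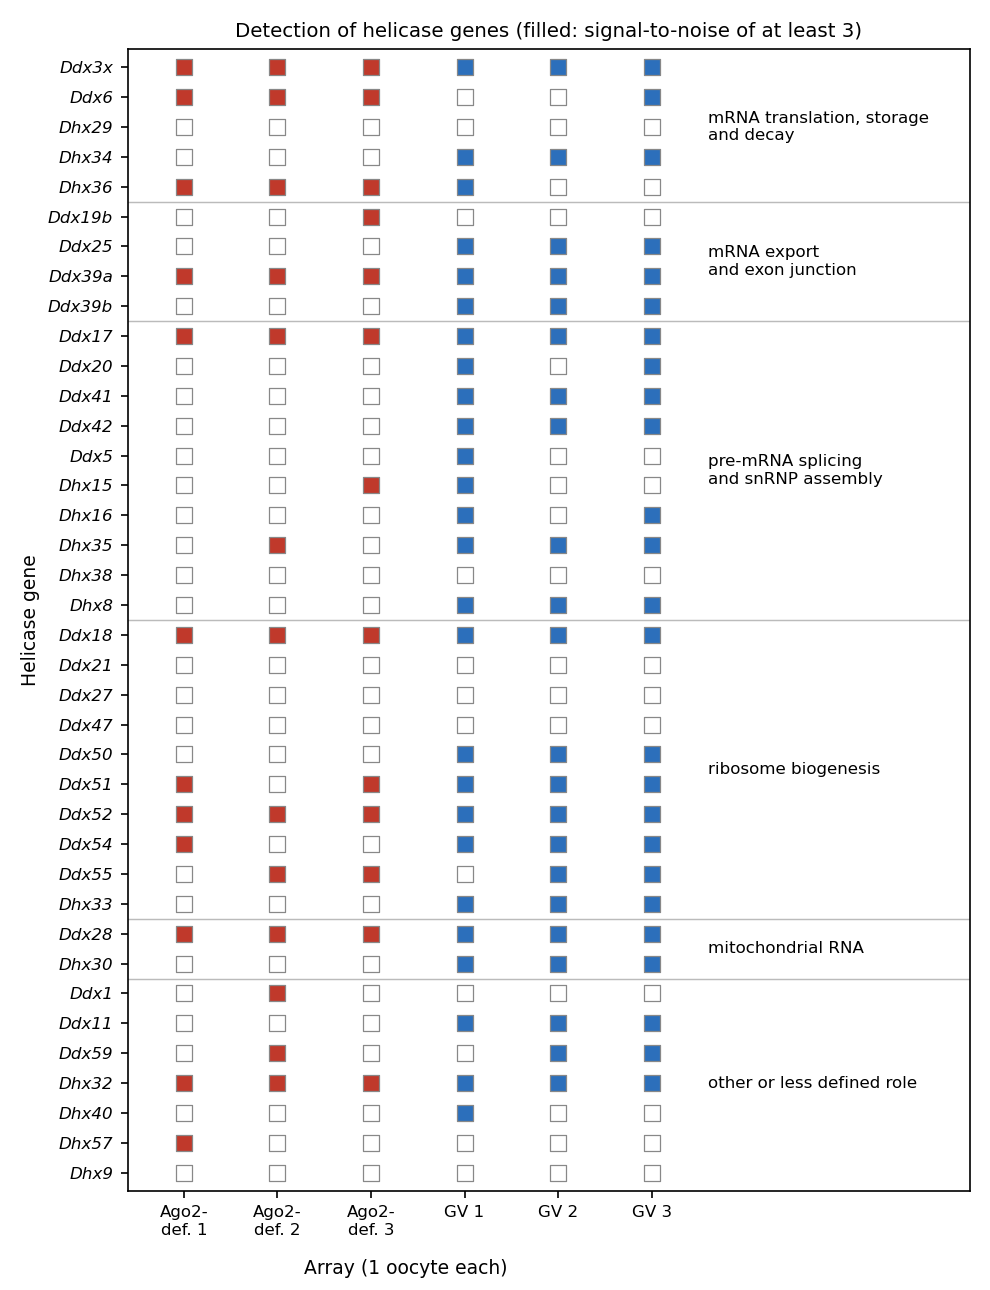
Detection of the 38 helicase genes (rows, grouped by role) on the 6 arrays (columns, 1 oocyte each), where a filled square marks detection, red for Ago2-deficient mature and blue for GV oocytes. Filled squares number 12 to 13 per Ago2-deficient column and 22 to 26 per GV column, and Ddx6 and Dhx36 alone are filled in every Ago2-deficient column but not in every GV column.

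Levels were compared on the log2 signals that the authors had quantile normalized, a step that gives every array the same spread of values. Genes entered the limma test if 1 group or both had a probe above the detection limit in all 3 oocytes, and a call needed an adjusted p under 0.05 (Benjamini and Hochberg, over every probe tested) together with more than a 2-fold change. Of the 38 helicase genes 22 could be tested. In knockout oocytes 4 of them were higher, Ddx18, Dhx36, Ddx52 and Ddx6, where 17.4% of all 7915 genes tested were higher. Lower were 9, Dhx8, Ddx42, Ddx28, Ddx51, Dhx33, Ddx25, Ddx50, Ddx11 and Ddx39b, where 44.8% of all genes tested were lower. The other 9 were not called, so that 13 of 22 were called in either direction (62.2% of all genes tested). In counts and shares over all genes tested or fitted, here and below, each probe without a single symbol counts as 1 gene. Of the 7915 genes tested, 4568 had a symbol. The split of 4 higher and 9 lower was 2 and 16 under median scaling, in which every array is given the same median, and 6 and 5 with cyclic loess. The counts moved over all 7915 genes tested too, to 312 higher and 6220 lower under median scaling and 1955 and 2510 with cyclic loess. The median log2 difference was -1.32 over the 22 helicase genes, -1.39 over all genes tested and -1.54 over those with a symbol. The groups did not overlap in 16 of the 22, where the share of all genes tested was 70.4%. This filter favours genes that are high in 1 group, so these counts describe the genes tested and not all 38. With no filter, 3 of the 38 were higher (5.26% of all genes) and 8 were lower (9.12% of all genes), since Ddx6 and Ddx51 lost their calls.

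**Figure D2:**
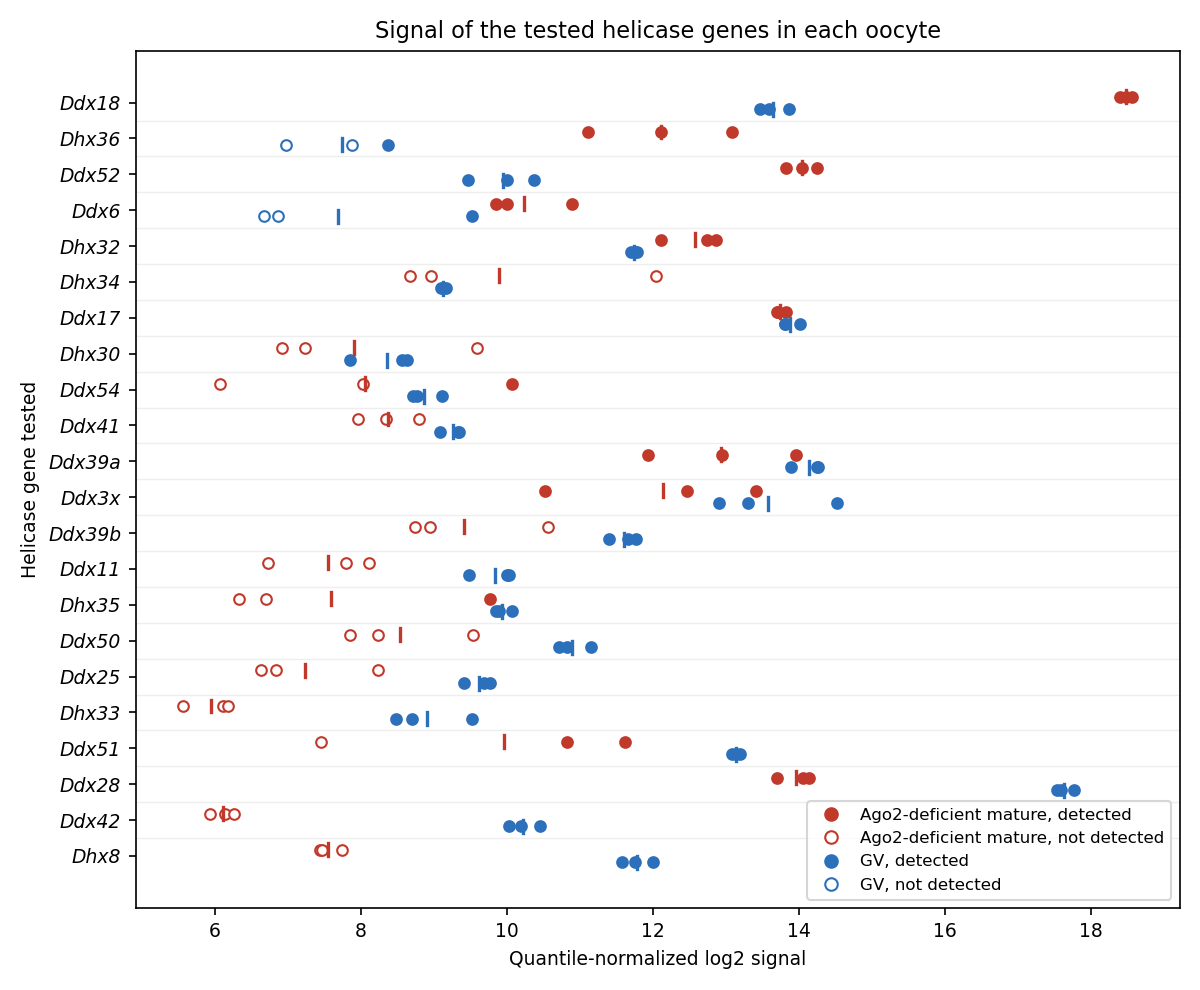
Quantile-normalized log2 signal (horizontal axis) of each tested helicase gene (vertical axis, ordered by difference) in 3 Ago2-deficient mature (red) and 3 GV oocytes (blue). Each circle is 1 oocyte, filled where the gene was detected, and short vertical lines are group means. Ddx18, Dhx36 and Ddx52 lie far to the right in red, and Ddx28, Ddx42 and Dhx8 far to the right in blue. Open red circles mark the many genes whose knockout signals are below detection.

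Genes of ribosome assembly held increases and decreases. On the quantile-normalized values the largest increase was that of Ddx18, while under each of the other 4 scalings it was smaller than that of Dhx36. Ddx18, the counterpart of the yeast nucleolar helicase Has1, had log2 signals of 18.49, 18.40 and 18.57 in the knockout oocytes and 13.60, 13.47 and 13.87 in the GV oocytes. Every knockout oocyte thus lay far above every GV oocyte, with little spread inside either group. The difference was 4.84 (SE 0.30, adjusted p = 0.000121 from limma), or 28.6-fold. The raw signals that underlie these values, before any scaling, were 141871, 413459 and 257737 in the knockout and 30054, 24159 and 29356 in the GV oocytes, so the groups were apart on the unscaled signal too.

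Ddx52, the counterpart of yeast Rok1, which acts in assembly of the small ribosomal subunit, read 13.82, 14.05 and 14.25 in the knockout oocytes, while the GV oocytes read 10.37, 9.47 and 10.01. Ddx52 was detected on all 6 arrays and was higher by 4.09 (SE 0.36, adjusted p = 0.000247 from limma), or 17.1-fold. Its call was lost under median scaling, where the log2 difference was 1.33. Its raw signals were 3828, 12845 and 10211 against 2638, 877 and 1365, so that on the unscaled signal too the groups stayed apart.

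The other tested genes of this role were detected less well in the knockout oocytes. Ddx51, a helicase of the large ribosomal subunit, read 13.14, 13.09 and 13.19 in the GV oocytes, and 11.62, 7.46 and 10.83 in the knockout oocytes, of which the second was below detection. It differed by -3.17 (SE 1.03, adjusted p = 0.0334 from limma). Without knockout replicate 2 it differed by -1.91 and without knockout replicate 1 by -3.99. Its call was lost when any of the GV arrays was left out (adjusted p = 0.0851 to 0.0920). Dhx33, a nucleolar protein of rRNA transcription, read 9.53, 8.48 and 8.71 in the GV oocytes and was below detection in all knockout oocytes, at 6.12, 6.18 and 5.57. For such a gene the fold is given as a bound, in which the dimmer group takes, for each oocyte, either the probe's own value or the lowest value of any detected probe, whichever is higher. All such bounds hold for the quantile-normalized values and for these 6 arrays only. For Ddx39b, Ddx25, Ddx11, Ddx50 and Dhx8 the probe's own values were used throughout, so the plain fold is given, which is not a bound. The same holds for the partners Eif4b, Pdcd4 and Irf3 below. With 1 array left out the lowest fold was 3.63 for Ddx39b, 3.69 for Ddx11, 4.04 for Ddx50, 4.23 for Ddx25 and 17.4 for Dhx8. The lowest bound was 5.23 for Dhx33 and 15.5 for Ddx42. Dhx33 was at least 6.50-fold lower (adjusted p = 0.00109 from limma), and lost its call under centring on the always-detected probes, at a log2 difference of -1.45. Ddx50, a nucleolar helicase, read 10.83, 10.72 and 11.16 in the GV oocytes and 9.54, 8.24 and 7.86, all below detection, in the knockout oocytes. Ddx50 was 5.13-fold lower (adjusted p = 0.00610 from limma), and lost its call with cyclic loess, at a log2 difference of -0.56. Ddx54, another nucleolar helicase, was not called, at 10.08, 8.03 and 6.07 in the knockout and 8.72, 8.77 and 9.11 in the GV oocytes, where the spread of the knockout oocytes took in all GV values. Without knockout replicate 1, Ddx54 was called at -1.81, and under median scaling it was called at -2.01.
Of the 4 genes of this role that were not tested, Ddx21, Ddx27 and Ddx47 were below detection everywhere. Ddx55 was detected in 2 oocytes of each group, and its knockout values of 5.86, 8.17 and 9.20 took in all GV values. Of 10 ribosome assembly genes on the array 6 were tested, of which 2 were higher, 3 were lower and 1 was not called. Over all genes tested, 17.4% were higher and 44.8% lower.

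Helicases of mRNA translation, storage and decay gave the other increases. Dhx36, which unwinds the quadruplex folds of guanine-rich RNA, read 11.12, 12.11 and 13.09 in the knockout oocytes. In the GV oocytes it read 8.37, 6.98 and 7.88, of which only the first was detected. All knockout oocytes lay above all GV oocytes, although they spread widely among themselves. The difference was 4.36 (SE 0.62, adjusted p = 0.00117 from limma). Only 1 of the GV values was above the detection limit. The raw signals were 921, 3142 and 4134 in the knockout and 361, 83.5 and 162 in the GV oocytes.
Ddx6, a helicase of translational repression and mRNA decay, read 9.85, 10.89 and 10.00 in the knockout oocytes and 6.68, 6.87 and 9.53 in the GV oocytes. The third GV oocyte, the one in which it was detected, came close to the lowest knockout oocyte. Its difference of 2.55 (SE 0.81, adjusted p = 0.0307 from limma) was no longer called without GV replicate 1 (2.04, adjusted p = 0.107), GV replicate 2 (2.14, adjusted p = 0.105), knockout replicate 2 (2.23, adjusted p = 0.0874) or knockout replicate 3 (2.68, adjusted p = 0.0539). It was 3.47 without GV replicate 3 (adjusted p = 0.0042). Its call was kept in 9 of 17 alternatives. A second Ddx6 probe was detected in 1 oocyte of each group, read 8.36, 5.90 and 7.03 against 7.53, 7.69 and 7.01, and did not share the difference.
Ddx3x, which helps ribosomes start on mRNAs with folded leaders, was detected in every oocyte and was not called. It read 10.53, 12.47 and 13.41 in the knockout and 14.52, 12.91 and 13.30 in the GV oocytes, and the groups overlapped. The difference was -1.44 (SE 0.81, adjusted p = 0.164 from limma), -0.63 without knockout replicate 1 and -2.07 without knockout replicate 3. Ddx3x was called lower under median scaling (-4.45), with no scaling (-3.35) and under centring on the always-detected probes (-2.24). Dhx34, a factor of nonsense-mediated decay, was detected in all GV oocytes at 9.13, 9.10 and 9.17 and in no knockout oocyte. Its knockout values were 12.04, 8.68 and 8.96, of which the first lay above every GV value without passing the signal-to-noise limit. It was not called (log2 difference 0.76, adjusted p = 0.479 from limma). With cyclic loess it was called higher, at 1.96, although its knockout signals were undetected, and under median scaling it was at -1.18, uncalled. Its second probe passed the limit in 1 knockout oocyte alone. Dhx29, which helps scanning ribosomes, was below detection everywhere. Of 5 genes of this role 4 were tested, of which 2 were higher and none was lower. Of all genes tested, 17.4% were higher and 44.8% lower.

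Of 10 splicing helicases on the array 5 were tested, of which 2 were lower, where the share of all genes tested was 44.8%, and none was higher. Dhx8, the counterpart of yeast Prp22, which releases finished mRNA from the spliceosome, read 11.58, 12.00 and 11.76 in the GV oocytes. In the knockout oocytes it read 7.45, 7.74 and 7.47, below detection in each. It was 18.7-fold lower (log2 difference -4.23, SE 0.31, adjusted p = 0.000162 from limma), with a log2 difference of -2.05 under cyclic loess. Its raw signals were 7492, 8351 and 6624 in the GV and 280, 331 and 187 in the knockout oocytes. Ddx42, which associates with the branch-site complex SF3b, showed the same pattern, at 10.45, 10.03 and 10.20 in the GV oocytes and 6.14, 5.94 and 6.26, all below detection, in the knockout oocytes. Ddx42 was at least 16.8-fold lower (log2 difference -4.12, SE 0.31, adjusted p = 0.000173 from limma). In both genes the groups were several log2 units apart and the spread inside each group was small. In the knockout oocytes this is the spread of signals below detection, on which the SEs and p-values rest in part.
Ddx17, a coregulator of transcription and splicing, stood in contrast as the helicase gene with the smallest difference among those tested. It read 13.71, 13.82 and 13.72 in the knockout and 14.02, 13.81 and 13.81 in the GV oocytes, a log2 difference of -0.13 (SE 0.29, adjusted p = 0.724 from limma). This closeness holds on the quantile-normalized values and with cyclic loess, whereas Ddx17 was called lower by -3.42 under median scaling, by -2.32 with no scaling and by -1.21 under centring on the always-detected probes. Dhx35, a component of the catalytic spliceosome, read 10.08, 9.89 and 9.85 in the GV oocytes. Of the knockout oocytes only the second passed the detection limit, at 9.77, against 6.33 and 6.71 in the others. Dhx35 was not called (log2 difference -2.34, adjusted p = 0.0578 from limma). Without knockout replicate 2 it was called, at -3.42 (adjusted p = 0.000952). Dhx35 was also called lower under median scaling (-3.74), with no scaling (-2.63) and under centring on the always-detected probes (-1.52). Ddx41, also a spliceosome component, was not called at -0.89 (adjusted p = 0.0617 from limma), with 9.35, 9.09 and 9.34 in the GV oocytes and undetected values of 8.80, 8.35 and 7.97 in the knockout oocytes. Without knockout replicate 1, Ddx41 was called at -1.10, and under median scaling it was called at -2.16.
The 5 splicing helicases that were not tested had scattered or no detection. Dhx16, the counterpart of Prp2, and Ddx20, a partner of the SMN complex that assembles small nuclear ribonucleoproteins, were each detected in 2 GV oocytes. Ddx5 was detected in 1 GV oocyte, and Dhx15, the counterpart of Prp43, in 1 oocyte of each group. Dhx38, the counterpart of Prp16, was below detection everywhere.

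Both helicases of mitochondrial RNA were detected in all GV oocytes. Ddx28, which takes part in assembly of the mitochondrial ribosome, read 17.59, 17.54 and 17.77 in the GV oocytes and 13.71, 14.06 and 14.14 in the knockout oocytes. It was detected on every array, so unlike most decreases its difference of -3.66 (SE 0.31, adjusted p = 0.000218 from limma) rests on signals above background on both sides. That is 12.7-fold lower. The raw signals were 295774, 291223 and 293144 in the GV and 3579, 12863 and 9310 in the knockout oocytes. Dhx30, which binds mitochondrial transcripts, was detected in no knockout oocyte and was not called, at 8.57, 7.86 and 8.64 in the GV and 6.92, 9.59 and 7.24 in the knockout oocytes. Without knockout replicate 2 it was called, at -1.28 (adjusted p = 0.0351). Its direction was not settled, as the first knockout value is an empty cell in the deposited series table, and the fit that drops it gave 0.06.

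Of the 4 export helicases 3 were tested, of which 2 were lower, where the share of all genes tested was 44.8%. Ddx39b, an ATPase that loads export adaptors onto spliced mRNA, read 11.77, 11.40 and 11.66 in the GV oocytes and 10.56, 8.74 and 8.95, all below detection, in the knockout oocytes. It was 4.59-fold lower (adjusted p = 0.0111 from limma) and lost its call with cyclic loess, at -0.81. Its close relative Ddx39a was detected on all 6 arrays, at 11.93, 12.95 and 13.96 in the knockout and 14.25, 13.89 and 14.27 in the GV oocytes. The highest knockout oocyte passed the lowest GV oocyte, and Ddx39a was not called (log2 difference -1.20, SE 0.55, adjusted p = 0.0966 from limma), but it was without knockout replicate 3 (-1.70), under median scaling (-4.39), with no scaling (-3.29) and under centring on the always-detected probes (-2.18). Ddx25, known from export and translation in male germ cells, was detected in all GV oocytes at 9.41, 9.69 and 9.77. It was undetected in the knockout oocytes at 6.84, 8.24 and 6.63, and was 5.22-fold lower (adjusted p = 0.00552 from limma). Ddx25 lost its call with cyclic loess, at -0.92, and under centring on the always-detected probes, at -1.23. Ddx19b, which strips proteins from mRNA at the nuclear pore, was detected in 1 knockout oocyte and was not tested.

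Among the 7 genes of other or less defined role, Ddx11 was lower. It encodes a DNA helicase of sister chromatid cohesion and read 10.01, 9.49 and 10.03 in the GV oocytes, against undetected values of 8.12, 7.80 and 6.73 in the knockout oocytes. It was 4.91-fold lower (adjusted p = 0.00475 from limma), but not called with cyclic loess (-0.62) or under centring on the always-detected probes (-1.33). Dhx32 was detected on all 6 arrays, with 12.11, 12.87 and 12.75 in the knockout and 11.70, 11.78 and 11.76 in the GV oocytes. Although the groups did not overlap, its difference of 0.83 was not called (SE 0.34, adjusted p = 0.0705 from limma), and its sign turned under median scaling (-2.46, called), with no scaling (-1.36, not called) and under centring on the always-detected probes (-0.25, not called). Without knockout replicate 1 it was called at 1.06. Ddx1, a subunit of the tRNA ligase complex, and Dhx57 were each detected in 1 knockout oocyte only. Dhx57 read 11.62 in the first knockout oocyte and 5.91 to 6.72 in the other 5 oocytes. Ddx59 was detected in 1 Ago2-deficient and 2 GV oocytes and Dhx40 in 1 GV oocyte, and Dhx9, a nuclear helicase, on no array.

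How far these differences depended on the scaling was examined for each gene. Besides quantile normalization and the shared median, the arrays were left unscaled, were centred on the mean of the probes detected in every oocyte, or were fitted to each other in pairs (cyclic loess). The median log2 difference of all genes tested was -1.39 on the quantile-normalized values, -3.08 under median scaling, -1.97 with no scaling, -0.86 under centring on the always-detected probes, and -0.36 with cyclic loess. Of the 13 called helicase genes, 5 were called in the same direction under every alternative in which they could be fitted. These were Ddx18 and Dhx36, higher, and Ddx28, Ddx42 and Dhx8, lower. The alternatives numbered 19 for Ddx18 and Ddx28 and 18 for Dhx36, Ddx42 and Dhx8. The same share over all called genes was not computed. The sign of Dhx32, Dhx34, Dhx30, Ddx54 and Ddx41, none of which was called on the quantile-normalized values, turned under at least 1 scaling. Over the 5 scalings, the log2 difference of Ddx18 ran from 2.05 to 4.84 and that of Dhx36 from 2.65 to 5.74. That of Ddx28 ran from -6.39 to -3.62, that of Ddx42 from -5.38 to -3.08 and that of Dhx8 from -5.95 to -2.05. Of the 7 helicase genes detected on all arrays, 2 were higher and 2 lower, Ddx39a being added to the calls, when only such probes were fitted (45.2% and 21.7% of all genes so fitted).

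**Figure D3:**
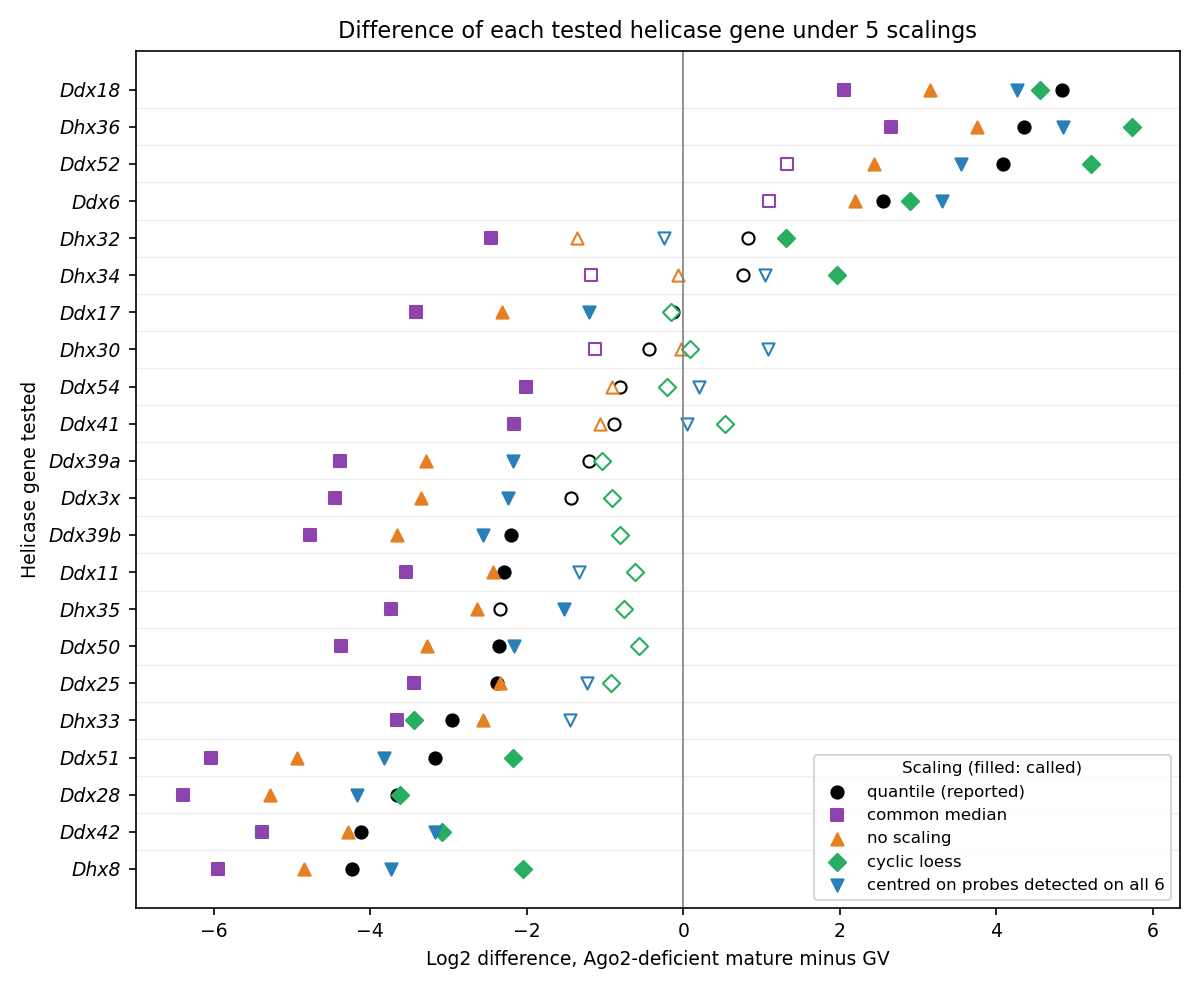
Log2 difference, Ago2-deficient mature minus GV oocytes (horizontal axis), of each tested helicase gene (vertical axis) under 5 scalings of the arrays, given by symbol. Filled symbols are called. Ddx18 and Dhx36 are filled and to the right of 0 under all 5, Ddx28, Ddx42 and Dhx8 are filled and to the left of 0 under all 5, and the symbols of Dhx32 lie on both sides, from -2.46 to 1.32.

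Promoters are shown for the higher genes Ddx18, Ddx52 and Dhx36, for Dhx8, which had the largest decrease on the quantile-normalized values although it was undetected in the knockout oocytes, and for Ddx28, which was detected on every array and had the largest decrease under the other 4 scalings. RefSeq (build GRCm38.p6) held promoter entries for 34 of the 38 genes, 44 entries in all. The 150 bases before each start were searched on both strands for the E-box CACGTG, the CCAAT box CCAAT, the GC box GGGCGG and the Ets core CCGGAA. Matches of different motifs can overlap, and capitals mark the matches.
Ddx18 (higher, chr1:121567981-121568130, minus strand): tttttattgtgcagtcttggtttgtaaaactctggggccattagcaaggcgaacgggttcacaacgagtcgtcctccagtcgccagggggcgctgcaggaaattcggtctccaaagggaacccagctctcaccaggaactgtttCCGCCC
Ddx52 (higher, chr11:83941940-83942089, plus strand): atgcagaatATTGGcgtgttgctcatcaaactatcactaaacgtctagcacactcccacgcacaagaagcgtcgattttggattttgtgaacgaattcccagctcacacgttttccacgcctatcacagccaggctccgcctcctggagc
Dhx36 (higher, chr3:62506989-62507138, minus strand): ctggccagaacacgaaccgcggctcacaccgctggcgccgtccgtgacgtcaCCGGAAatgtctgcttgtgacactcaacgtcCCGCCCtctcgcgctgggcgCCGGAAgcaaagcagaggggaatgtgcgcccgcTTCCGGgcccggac
Dhx8 (lower, chr11:101732806-101732955, plus strand): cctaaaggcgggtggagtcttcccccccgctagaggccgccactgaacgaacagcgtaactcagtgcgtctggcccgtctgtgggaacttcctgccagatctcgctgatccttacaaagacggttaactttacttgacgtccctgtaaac
Ddx28 (lower, chr8:106011487-106011636, minus strand): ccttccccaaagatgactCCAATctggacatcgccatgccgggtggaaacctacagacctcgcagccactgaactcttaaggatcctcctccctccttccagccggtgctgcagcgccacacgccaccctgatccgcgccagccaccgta
No motif was found in all of the 3 higher genes shown. Ddx6, also called higher, is not among the promoters shown. Ddx18 and Dhx36 each held the GC box, Dhx36 also held the Ets core, and Ddx52 held the CCAAT box, as did the lower gene Ddx28. Over all 44 helicase windows the GC box was found in 45.5% (28.6% of all 32851 windows), the Ets core in 34.1% (9.23%), the CCAAT box in 27.3% (24.5%) and the E-box in 11.4% (4.30%). A match is a run of letters and was not tested as a binding site, and the arrays measured RNA only.

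Helicases outside the Ddx and Dhx names and known partners of these enzymes were looked up from lists. Of 16 other RNA helicases on the array 10 were tested, of which 1 was higher (17.4% of all genes tested) and 7 were lower (44.8%). Upf1, the helicase of nonsense-mediated decay, was the higher one, at 15.72, 15.74 and 15.45 in the knockout and 11.71, 12.42 and 11.32 in the GV oocytes (log2 difference 3.82, SE 0.39, adjusted p = 0.000362 from limma), although under median scaling it was not called (0.79). Snrnp200, the helicase that unwinds the U4 and U6 small nuclear RNAs, read 13.13, 12.95 and 13.27 in the GV oocytes and was detected in 1 knockout oocyte. It differed by -4.28 (SE 1.00), by -3.11 without knockout replicate 1 and by -5.18 without knockout replicate 2. Dicer1, which cuts small RNA precursors, read 14.41, 14.07 and 14.38 in the GV oocytes and 5.95, 7.93 and 8.05 in the knockout oocytes, of which only the second was detected. It was lower, by -6.98 (SE 0.61) on these values, whose size rests on undetected signals, and by -4.83 with cyclic loess. Eif4a2, Eif4a3, Supv3l1, Ighmbp2 and Mov10l1 were the other lower ones. Of these, Supv3l1 lost its call without knockout replicate 2 (-3.13) or any GV array (-2.95 to -2.72), and Eif4a2 without GV replicate 1 (-2.53) or GV replicate 2 (-2.43) and with cyclic loess (-0.76). Mov10l1 lost its call with no scaling (-1.15), with cyclic loess (-0.89), under centring on the always-detected probes (-0.04) and with no filter (-1.58), and Ighmbp2 under that centring (-0.19). Helz and Mov10 were not called, at -1.11 and -1.13, but both were called lower under median scaling (-3.58 and -2.67). Helz was also called lower with no scaling (-2.48).

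Of 37 partner genes 21 were tested, with 3 higher and 12 lower, beside the same 17.4% and 44.8% of all genes tested. Among the 5 partners in translation, Eif4h and Eif4b, cofactors of the initiation helicase eIF4A, were both lower. Eif4h differed by a log2 difference of -4.09 (SE 0.37) and Eif4b was 8.47-fold lower. Pdcd4, an inhibitor of eIF4A, was 6.67-fold lower. Both Eif4b and Pdcd4 were undetected in the knockout oocytes. With cyclic loess and under centring on the always-detected probes the log2 differences were smaller, at -1.20 and -2.16 for Eif4b and -1.51 and -1.44 for Pdcd4. Eif4e, the cap-binding protein, was higher by 1.83 but lost its call with no scaling (0.05), and differed by -1.05, uncalled, under median scaling. Of 8 partners in storage and repression 6 were tested, of which 3 were lower and none was higher. However, Edc4, 1 of the 3, lost its call without any 1 of the GV arrays (-1.58 to -1.49). Eif4enif1, which ties Ddx6 to the cap-binding protein, read 15.71, 15.04 and 15.82 in the GV oocytes and 6.93, 10.86 and 11.70 in the knockout oocytes. It differed by -5.69 (SE 1.20, adjusted p = 0.00595 from limma), by -4.24 without knockout replicate 1 and by -6.63 without knockout replicate 3. Lsm14a, another partner of Ddx6, was not called at -0.48 (adjusted p = 0.382 from limma), with 13.75, 13.93 and 14.72 against 15.24, 14.48 and 14.12. It was called lower under median scaling (-3.68), with no scaling (-2.57) and under centring on the always-detected probes (-1.46).
Of 8 partners in export and the exon junction, Thoc5 was at least 16.9-fold lower, with a log2 difference of -2.03 under cyclic loess. Nxf1, the main mRNA exporter, was detected in 1 knockout oocyte and was lower, by -3.57 on the quantile-normalized values, -4.16 without knockout replicate 2 and -1.59 with cyclic loess. Casc3, a core protein of the exon junction, was higher by 2.52, with its call lost with no scaling (0.93) and its sign turned, uncalled, under median scaling (-0.18). Of 10 spliceosome partners 4 were tested, of which 1 was higher (17.4% of all genes tested) and 3 were lower (44.8%). Prpf6, a protein of the U5 particle, was higher by 6.48 (SE 1.08, adjusted p = 0.00226 from limma), at 15.45, 15.16 and 15.35 in the knockout and 9.70, 6.21 and 10.59 in the GV oocytes, and by 5.17 without GV replicate 2 and 7.36 without GV replicate 3. Prpf8, the central protein of the same particle, was detected in 1 knockout oocyte and was lower, by -4.74 (SE 0.64), by -4.02 without knockout replicate 1 and by -2.86 with cyclic loess. Of 6 partners in RNA sensing, Irf3 was 13.3-fold lower on undetected knockout signals, with a log2 difference of -1.60 under cyclic loess, and none was higher.

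**Figure D4:**
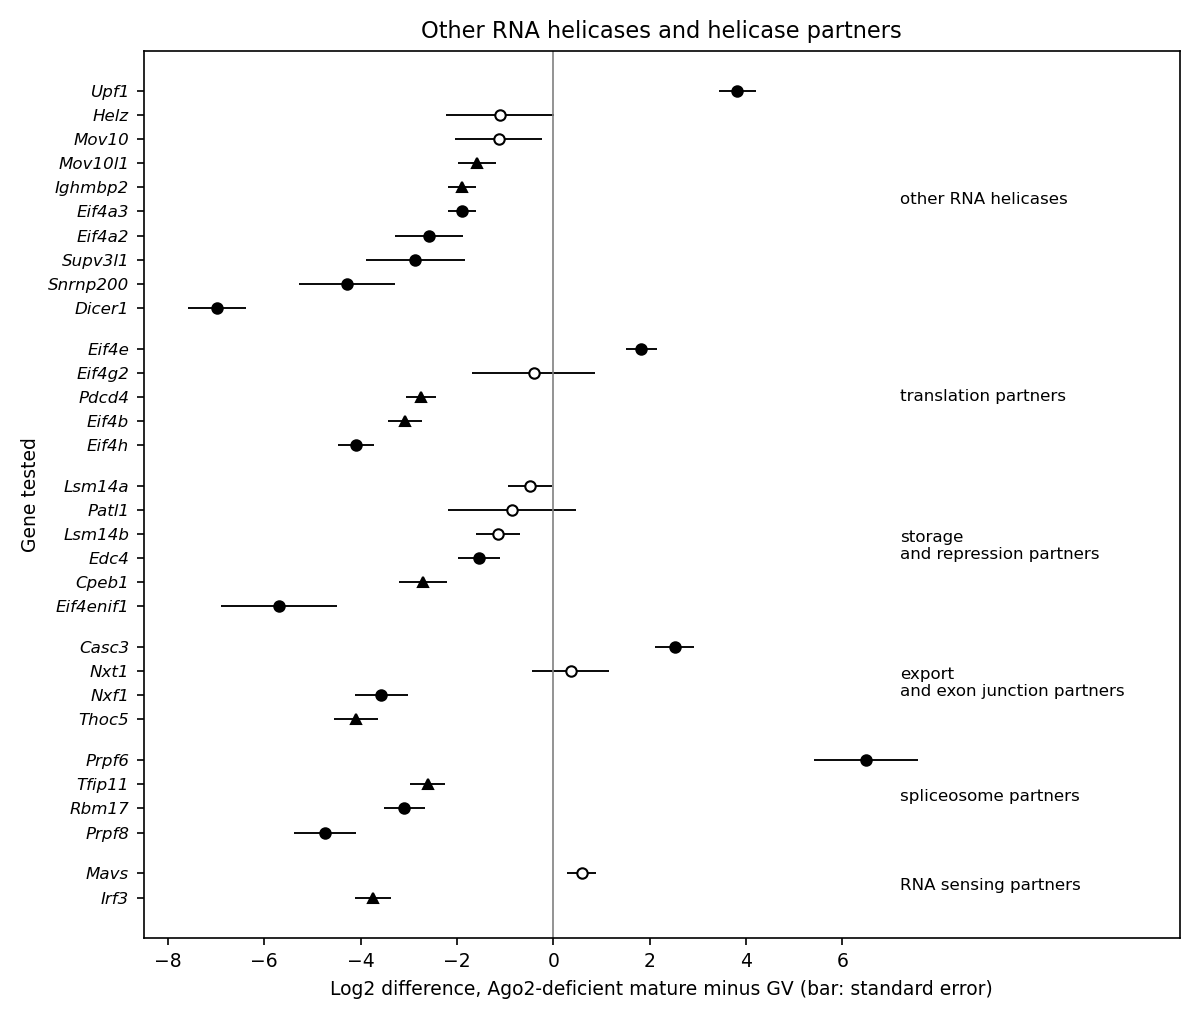
Log2 difference, Ago2-deficient mature minus GV oocytes (horizontal axis, bars are SEs of the limma fit), of tested RNA helicases with other names and of tested helicase partners (vertical axis, by list). Filled symbols are called, open symbols are not, and triangles are genes detected in no knockout oocyte, whose position is not a bound. Most filled symbols lie left of 0, while Upf1, Eif4e, Casc3 and Prpf6 lie right of 0, of which Eif4e and Casc3 move to the left of 0 under median scaling.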

How the data were processed

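Each deposited sample file gave, for 33012 probes, a signal intensity without scaling between arrays, a signal-to-noise score, a flag code, and log2 values that the authors had quantile normalized over the 6 arrays. The arrays share their quantiles to within 0.0107, so a difference in total RNA between oocytes cannot be seen on these values. In the deposited series table these log2 values recur, with 2675 empty cells. The scanner software and the statistical test are not given in the sources used here. The authors hybridized labelled cRNA of amplified single-oocyte cDNA, with the same amounts of cDNA and of cRNA used for every sample. The unscaled signals therefore do not measure the amount of RNA per oocyte either. Probes were named through the platform annotation (14411 with 1 symbol, 247 with several, 18354 with none), and the gene IDs of all 40 helicase probes carried the same symbol in the gene table used. No genome coordinates of probes were used. Where more than 1 probe of a gene was tested, its brightest probe on average stood for it. A probe without a single symbol counted as a gene of its own. The number of arrays limits the precision.

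A linear model without a replicate block (lmFit, then eBayes; limma 3.58.1, R 4.3.3) was fitted to the log2 values of each probe that passed the detection limit throughout 1 group or both. The fit was run on simulated independent normal noise with planted differences. This checks the code only, as the simulation had no signals below detection and no difference in scaling. In the alternative scalings, 2 unscaled signals under 16 were raised to 16 before log2. Array weights used statmod 1.5.0, and counts per array used the exact permutation test of scipy 1.17.1. Plots were drawn with matplotlib 3.10.9. Alternatives covered scaling, filter, detection limit, variance model, threshold, replicate block and each array left out in turn. Values are given in full for up to 4 called genes and up to 2 genes not called per role, and for up to 3 and 2 in each list of related genes. The helicase genes, roles, lists and tests were chosen with earlier results of these data known.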

Additional observations from a re-analysis of the deposited data

How the results depend on the processing

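The counts of helicase genes called, 4 higher and 9 lower, were 2 and 16 under median scaling, 6 and 5 with cyclic loess, and 2 and 2 when only probes detected on all 6 arrays were fitted, a fit in which 7 helicase genes remain. Leaving out 1 array gave 3 to 5 higher and 8 to 11 lower. Over all 7915 genes tested, 1378 were higher and 3543 lower. Those counts were 312 and 6220 under median scaling, and 1955 and 2510 with cyclic loess. With 1 array left out they were 1211 to 1647 and 2903 to 3811. Of 2497 genes detected on all 6 arrays and fitted alone, 1128 were higher and 543 lower. For other RNA helicases, 1 higher and 7 lower, the count of higher genes was 0 under median scaling and 2 with no filter, and that of lower genes 1 among probes detected on all 6 arrays. For partners, 3 higher and 12 lower, it was 1 higher under median scaling, 1 higher with no scaling and 3 lower among probes detected on all 6 arrays. Except for the fit of fewer probes, the cause was not tested. The sign turned, for genes called in either of the fits compared, in Dhx32 (-2.46), Eif4e (-1.05), Casc3 (-0.18), Nxt1 (-1.86) and Mavs (-2.68) under median scaling, and in Mavs with no scaling (-1.57). The helicase count of detected genes per array differed by -11.7 at a signal-to-noise of 3 and by -13.3 at 5. With replicate number as a block 4 helicase genes were higher and 9 lower, 1 and 6 among other RNA helicases, and 3 and 12 among partners. Same-numbered oocytes did not deviate together (r = -0.0487, 0.0275 and -0.0339 across genes), and not every oocyte correlated best with its own number. The series table with its empty cells, an alternative chosen after the data were seen, also gave 4 and 9.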
